A study of Arabidopsis thaliana with 9 samples.

Results

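Among the Arabidopsis genes that the array annotation lists under a locus code alone, 214 probe sets had a higher signal after a day in the cold in both Col-0 and WS. They are 1.79% of the 11930 eligible probe sets with a locus code only and belong to 212 genes, of 13356 genes with a probe set of their own. A probe set is the group of probes that measures a transcript, and its signal is given on a log2 scale, so that a step of 1 is a doubling. Loci were chosen by these log2 signals: a probe set was taken if its mean over the 5 cold Col-0 arrays and its mean over the 2 cold WS arrays both lay at least 1.5 above the mean of the 2 Col-0 arrays at 22 °C, and if the lowest of the 7 cold arrays lay above both 22 °C arrays. The codes AT4G33980, AT3G55580 and AT4G14090 were left out by the rule. The rise in the cold is therefore what chose these loci, and it is described here without a test.

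Seedlings of the wild-type accessions Col-0 and WS (WS2 in the ecotype label) were 10 days old and were harvested whole, roots included. They had been stratified for 3 days and raised at 22 °C in constant light of 60 to 80 microE on Gamborg's medium without sucrose and with 0.7% agar. Cold-treated seedlings spent 24 h in a chamber at 4 °C, while the mock-treated Col-0 seedlings were moved to a fresh chamber at 22 °C. How long the mock-treated seedlings stayed there is not clear from the labels and titles. Any effect of a difference in harvest time was not tested. Among the arrays of cold Col-0, 2 are titled set 4 and 3 have no set name; the titles do not explain this, nor the codes q6ws and q8ws of the WS arrays. No WS array at 22 °C was analysed here, so each WS rise below is a difference from Col-0 at 22 °C, in which the accession and its cold response cannot be told apart.

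Low, non-freezing temperatures start cold acclimation in Arabidopsis, in which plants gain tolerance to freezing. Much of the transcript response runs through the CBF transcription factors, which bind a short promoter element and switch on the COR (cold-regulated) genes, whose products include hydrophilic proteins that protect membranes and enzymes. The loci described here are listed under their locus code alone. All 212 genes were listed as protein coding in the RefSeq table of assembly TAIR10.1 and all still had their locus code as symbol. A name stood among the synonyms of 2 of them, coilin for AT1G13030 and NOTCHLESS (NLE) for AT5G52820; for the other loci no role is given, since the tables used here hold none.

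Tissue markers were read as a check on the label of whole seedlings. Of these, 4 of 6 shoot genes had a probe set of their own, with signals between 8.08 and 12.93. All 4 were called lower in cold Col-0, where 6.09% of all probe sets were. The root gene PYK10, a beta-glucosidase of root ER bodies, lay between 11.20 and 12.21. Of the other 2 root markers with a probe set, NAI2, an ER body protein, lay between 7.35 and 9.42 and was called lower in cold Col-0, and the root hair expansin EXPA7 was low, between 4.69 and 6.35. The pollen gene AT59, a pectate lyase, stayed at 3.29 to 3.50, below the lower quartile of every array (3.77 to 3.93). None of the 3 seed genes listed as markers had a probe set of its own. Array medians lay between 5.81 and 5.88 apart from 6.06 in replicate 3 of cold Col-0, and array pairs correlated at 0.920 to 0.993 over all probe sets, which are not independent replicates.

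The named cold pathway is given beside the loci. No minimum difference was used to list its genes, whereas the loci had to reach 1.5. Of 42 names of known cold-response genes, 9 genes had a probe set of their own and all 9 were called higher in cold Col-0 (limma, adjusted p under 0.05 and a log2 difference of at least 1), with a median difference of 2.99. COR15A, a chloroplast stromal protein, differed by 6.06 and the dehydrin LTI30 by 4.53, and ZAT10, a zinc-finger repressor, had the smallest difference at 1.31. The differences of the unnamed loci in Col-0 ran from 1.5 to 6.15. Of all probe sets, 5.87% were called higher in cold Col-0. None of the 9 was called between cold WS and cold Col-0, where 2.14% of all probe sets were.

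The unnamed loci rose 4.21-fold at the median in Col-0 (log2 2.07, lowest 1.5) and stood 3.98-fold above Col-0 at 22 °C in WS (log2 1.99, highest 6.03), whereas the medians over all probe sets were 0.03 and 0.04. In these mixtures of whole-seedling RNA, more cells of a type and more RNA per cell cannot be told apart. The smaller of both differences reached 2 in 91 probe sets, 3 in 21 and 4 in 8, and stayed under 2 in 123. The mean signal at 22 °C ranged from 3.56 to 10.67 with a median of 6.14, and 67 members lay below the medians of both 22 °C arrays. After cold the Col-0 means ranged from 5.26 to 12.44 and the WS means from 5.39 to 12.54. In all, 134 members lay above the upper quartile of every one of the 7 cold arrays, against 28 that did so on both 22 °C arrays. The loci were chosen by their rise, so these counts only describe the choice, and they cover unlike numbers of arrays. The plot of both differences shows the members as the upper right corner of a continuous cloud, with no gap at the threshold.

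**Figure D1:**
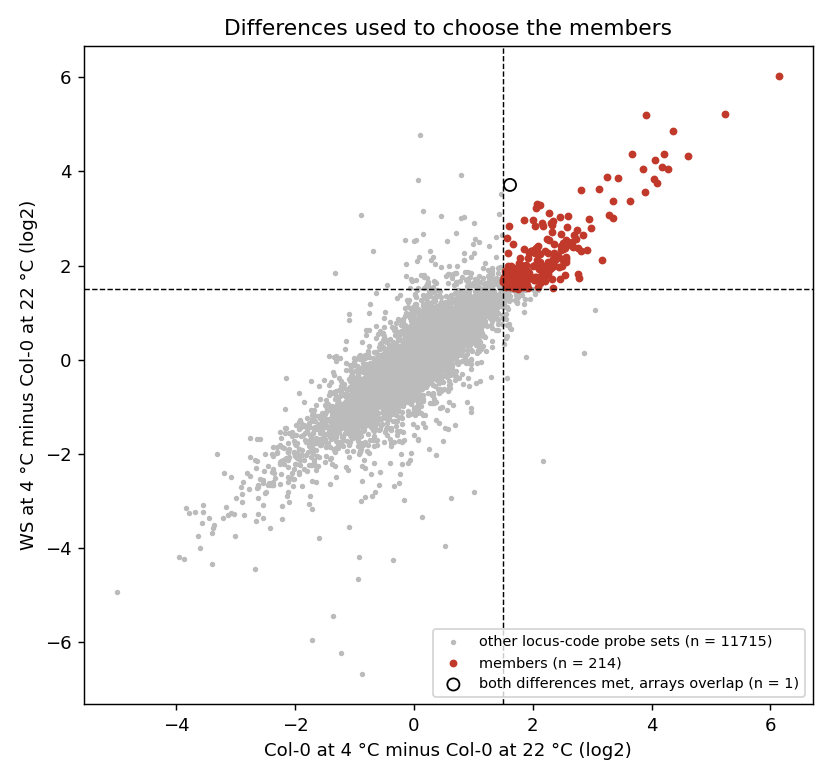
Each point is a locus-code probe set, with its Col-0 difference (4 °C minus 22 °C, log2) on the horizontal axis and the difference of cold WS from Col-0 at 22 °C (log2) on the vertical axis; dashed lines mark 1.5. Both axes subtract the same 2 arrays, so the slope of the cloud is no result. The 214 members are red, and the open circle is AT2G32020, which met both differences while its arrays overlapped.

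Just inside the threshold were AT4G03180 (1.75 in Col-0 and 1.5 in WS), AT2G37580 (1.5 and 1.64) and AT3G05500 (1.51 and 1.69). Just outside it were AT3G13160 (1.499 and 1.73), AT3G05980 (2.01 and 1.497) and AT1G69070 (1.60 and 1.496). In all, 276 locus-code probe sets reached 1.5 in Col-0 and 360 in WS; 215 reached it in both, 61 in Col-0 alone and 145 in WS alone. AT2G32020 was the 1 probe set that met both differences without separated arrays. Its signals were 4.16 and 4.51 at 22 °C, 5.76, 4.40, 6.51, 5.80 and 7.30 in cold Col-0, and 7.26 and 8.84 in cold WS, so that replicate 2 of cold Col-0 fell below a 22 °C array.

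AT1G16850 had the largest difference of all members. Its signal was 4.97 and 6.23 on the 22 °C arrays, 11.64, 11.69 and 11.86 on cold Col-0 replicates 1 to 3, 11.87 and 11.68 on the set 4 arrays, and 12.00 and 11.25 on the WS arrays. That is 5.60 ± 0.89 (SD, n = 2) at 22 °C against 11.75 ± 0.11 (n = 5) in cold Col-0 and 11.62 ± 0.53 (n = 2) in WS, or 71.05-fold and 65.2-fold. The 22 °C arrays were 1.26 apart, more than the whole spread of the cold Col-0 arrays, and the Col-0 fold lay between 45.9 and 110.0 across the alternatives, both ends coming from leaving out a 22 °C array.

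AT1G51090 followed with 5.34 and 5.69 at 22 °C, 11.13, 10.73 and 10.99 on the cold Col-0 arrays without a set name, 10.66 and 10.29 on set 4, and 11.03 and 10.46 in WS. Its rise was 37.9-fold in Col-0 and 37.5-fold in WS, and both 22 °C arrays were low. AT1G80130 was at 6.39 and 6.87 at 22 °C, at 11.07, 11.07, 11.32, 11.57 and 11.20 in cold Col-0, and at 11.36 and 10.57 in WS, 24.5-fold and 20.2-fold higher. In this gene the set 4 arrays were not the low ones.

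AT4G33905 was dim at 22 °C, with 3.56 and 3.70. In the cold it reached 8.09, 7.85, 8.81, 7.33 and 7.85 in Col-0 and 9.07 and 7.91 in WS, 20.5-fold and 29.1-fold higher. The WS arrays were 1.16 apart. Cold WS minus cold Col-0 was 0.51 (SE 0.38, limma adjusted p = 0.545), so the larger WS fold was not resolved from the spread. AT2G22590 had nearly equal 22 °C arrays, 4.30 and 4.28, and rose to 9.02, 8.17, 8.92, 8.33 and 8.43 in Col-0 and to 8.14 and 8.52 in WS.

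The next 5 loci by Col-0 difference were AT3G17130, AT4G36010, AT3G55760, AT2G16890 and AT4G30830. Their Col-0 rises ran from 16.4-fold (AT4G30830) to 18.4-fold (AT3G17130), and the WS values from 13.4-fold (AT3G55760) to 20.6-fold (AT3G17130). AT2G16890 had the most even baseline of these 5, with 5.81 and 5.85 at 22 °C, and 9.81, 9.94, 10.42, 9.83 and 9.40 in cold Col-0 against 10.16 and 9.99 in WS. AT4G30830 was the dimmest at 22 °C, with 3.50 and 3.64, and spread from 6.66 to 8.10 over the cold Col-0 arrays. A further 11 loci reached a log2 difference of 3 in both accessions. AT4G01870, at 15.07-fold in Col-0 and 36.9-fold in WS, had the widest split among them.

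**Figure D2:**
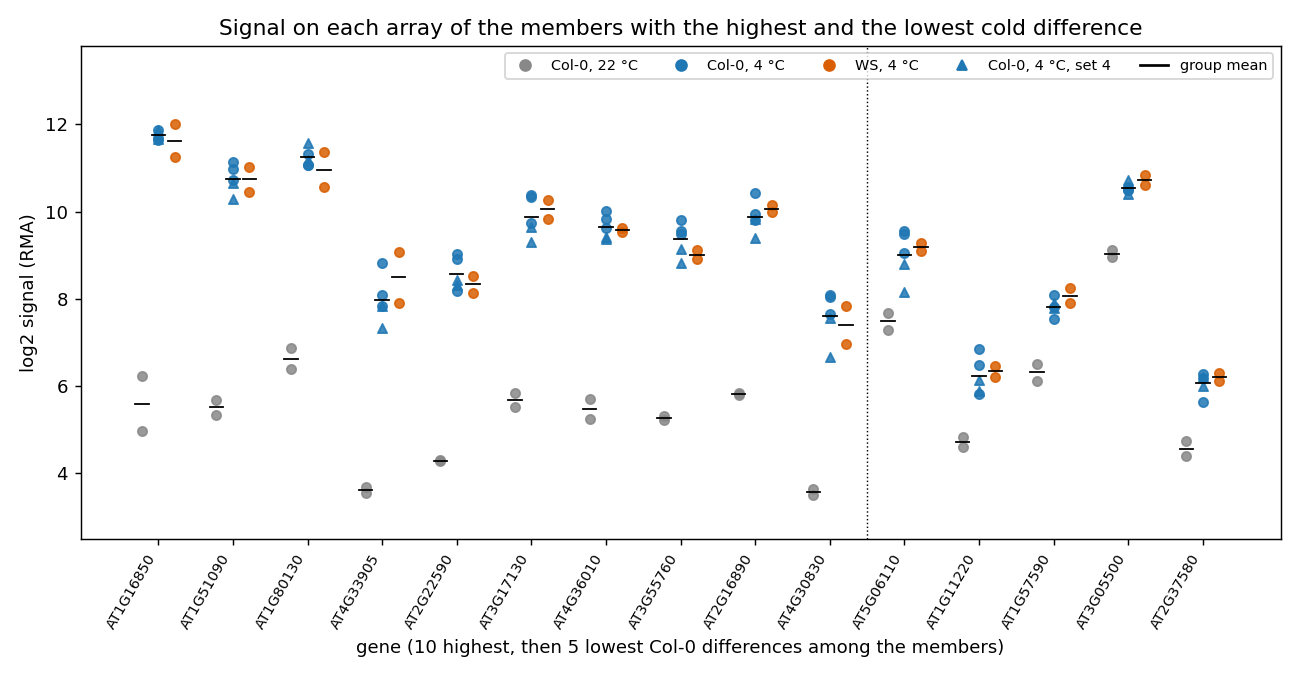
Log2 signal (vertical axis) on each of the 9 arrays for the 10 members with the highest and the 5 with the lowest Col-0 difference; grey is Col-0 at 22 °C, blue Col-0 at 4 °C (triangles, set 4), orange WS at 4 °C, and black bars are group means. In AT1G16850 the 22 °C arrays lie at 4.97 and 6.23 and the cold arrays between 11.25 and 12.00; in AT5G06110 the lowest cold array, at 8.15, is close to the higher 22 °C array at 7.69.

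The 5 members with the lowest Col-0 differences rose 2.84-fold to 2.88-fold in Col-0. AT3G05500 had the smallest SDs of them within both Col-0 groups, with 8.95 and 9.11 at 22 °C, 10.49, 10.51, 10.57, 10.40 and 10.72 in cold Col-0 and 10.61 and 10.84 in WS. AT5G06110 was at 7.69 and 7.28 at 22 °C, and at 9.05, 9.50, 9.55, 8.81 and 8.15 in cold Col-0, so that set 4 replicate 2 came close to the 22 °C level. AT1G11220, AT1G57590 and AT2G37580 made up the rest.

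The gap between the lowest cold array and the higher 22 °C array ran from 0.28 to 5.02, with a median of 1.48. It was at least 1 in 192 members and under 0.5 in AT1G65690, AT1G71000 and AT5G06110. AT1G71000 had the widest spread in cold Col-0, an SD of 1.29. Its signals were 3.73 and 3.84 at 22 °C, 7.31, 5.97 and 6.23 on the cold arrays without a set name, 4.17 and 4.54 on set 4, and 5.88 and 6.38 in WS. Only the set 4 arrays were near the 22 °C level. AT1G65690 was at 3.96 and 4.75 at 22 °C, at 5.67, 5.02, 6.39, 5.76 and 6.83 in cold Col-0 and at 5.66 and 6.21 in WS, and here the lowest cold array was replicate 2.

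Because the rule used the contrasts of 4 °C with 22 °C, their calls only describe the choice. Called higher were 213 of the 214 in cold Col-0, where 5.87% of all probe sets were, and 213 in WS against Col-0 at 22 °C, where 6.82% were. AT1G71000 was the exception in both.

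AT2G23120, AT3G09440 and AT4G30650 had the highest mean cold signals of the members, although signals of different probe sets also depend on their probes. AT2G23120 rose from 10.06 and 9.94 to 12.12, 11.88, 12.20, 11.85 and 11.85 in Col-0 and 12.27 and 12.35 in WS. AT3G09440 was at 10.39 and 10.94 at 22 °C, at 12.41, 12.32, 12.57, 11.68 and 12.04 in cold Col-0, and at 12.46 and 12.63 in WS. AT4G30650 was even in the cold, between 12.29 and 12.53 on all 7 arrays, and uneven at 22 °C, with 8.97 and 10.87. AT2G47780 had the lowest mean cold signal, with 5.07, 4.73, 6.12, 4.88 and 5.50 in Col-0 and 5.66 and 5.11 in WS against 3.60 and 3.82 at 22 °C.

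Coilin, the marker protein of Cajal bodies (nuclear bodies in which small RNA-protein particles mature), is the product of AT1G13030. Its signal was 5.85 and 5.80 at 22 °C, 7.72, 7.85 and 7.97 on cold Col-0 replicates 1 to 3, 7.53 and 7.16 on set 4, and 7.49 and 7.47 in WS, a rise of 3.54-fold in Col-0 and 3.15-fold in WS. NOTCHLESS, whose yeast homologue acts in the maturation of the large ribosomal subunit, is the name listed for AT5G52820. It was at 7.49 and 8.12 at 22 °C, at 9.51, 9.42, 9.53, 9.39 and 9.29 in cold Col-0 and at 9.33 and 9.36 in WS, a rise of 3.07-fold and 2.90-fold. For both loci the WS arrays lay within the range of cold Col-0.

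Some loci were measured by a second probe set. AT1G79150 had 2 and both were members, with Col-0 and WS differences of 1.97 and 2.32 on one and 1.94 and 1.85 on the other. AT5G62440 also had 2 members, at 1.90 and 1.85 and at 1.71 and 1.81. AT1G10090 was split: its second probe set differed by 1.86 in Col-0 but by only 1.01 in WS, and was not a member. The probe set of AT3G28530 is of a kind (ending in x_at) whose probes can also match other sequences, so its signal of 4.60 and 4.68 at 22 °C and 6.35 to 7.63 in cold Col-0 is uncertain as a measure of that gene.

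By locus code, 61 of the genes lay on chromosome 1, 26 on 2, 47 on 3, 29 on 4 and 49 on 5. These are 1.99%, 1.34%, 1.94%, 1.71% and 1.83% of the locus-code genes with a probe set on each chromosome. In the gene order of TAIR10.1, 2 pairs of members were direct neighbours. AT1G11210 and AT1G11220 differed in size, with Col-0 differences of 3.68 and 1.52, and AT1G76580 and AT1G76590 were alike, with 2.59 and 2.33. AT3G01800 and AT3G01820, with 1.80 and 2.18, had 1 gene between them. Of the 207 flanking genes that had a probe set of their own and were not members, 7 (3.38%) were called higher in cold Col-0, against 5.39% of 13286 genes measured by a single probe set, and 17 (8.21%) were called lower, against 5.50%. The members are not counted among the flanking genes but are in the wider share.

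The rule did not use the difference between cold WS and cold Col-0, but it used both means that enter it. Each had to lie 1.5 above the same 22 °C mean, which limits the difference in both directions: 145 probe sets that reached 1.5 in WS alone and 61 that did so in Col-0 alone were left out. The counts over the members are therefore a description, and nothing is read from their distance to the share of all probe sets. WS minus Col-0 at 4 °C had a median of −0.04 over the members (0.01 over all probe sets), and 98 members lay above 0 and 116 below. The difference was within 0.25 in 122 members, within 0.5 in 180 and within 1 in 205. Without replicate 3 of cold Col-0 the members' median became 0.04 and 99 lay below 0, so the sign of the median turned on 1 array. The median also moved with the scaling. With arrays shifted to a common median it was −0.0008, with 107 members below 0 against 41.3% of all probe sets. Quantile normalization gave −0.04, with 115 below 0 against 50.3%.

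In that comparison 2 of the 214 (0.935%) were called, both higher in WS, where 2.14% of all probe sets were called in either direction and 0.857% as higher in WS (limma, Benjamini-Hochberg over 22746 probe sets). Nothing in the labels tells whether replicate arrays were separate cultures, so the p-values cover the spread between these samples, which may be technical. The background itself rests partly on 1 library: 486 probe sets were called with all arrays and 285 without WS replicate 2. At an unadjusted p under 0.05 stood 31 members (14.5%, 19 of them higher in WS) against 19.2% of all probe sets. Both WS arrays lay above all 5 cold Col-0 arrays in 21 members, 9.81% against 12.1% of all probe sets, and below them in 15, 7.01% against 11.3%. These counts moved with the scaling: arrays shifted to a common median gave 30 above (14.4% of all) and 18 below (9.76%), and quantile normalization gave 22 (12.0%) and 28 (12.9%).

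AT3G60980 was higher in WS. It read 6.33 and 6.63 at 22 °C, 8.64, 8.52 and 8.58 on cold Col-0 replicates 1 to 3, 8.58 and 8.33 on set 4, and 9.83 and 9.59 in WS. The WS arrays stood above every Col-0 array by more than the spread within either group. The difference was 1.18 (SE 0.13, 2.27-fold, limma adjusted p = 0.00124), and across 17 alternatives it stayed between 1.06 and 1.30, with adjusted p between 0.000721 and 0.0184.

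AT5G13200 showed the same form. It read 6.52 and 6.45 at 22 °C, 8.60, 8.14, 8.41, 8.26 and 8.26 in cold Col-0 and 9.39 and 9.53 in WS. Again no Col-0 array reached the WS arrays. The difference was 1.13 (SE 0.13, 2.18-fold, limma adjusted p = 0.00176), with 1.06 to 1.20 across the alternatives and adjusted p between 0.00140 and 0.0335.

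A further 5 members had a WS difference of at least 1 without passing the test. AT3G16800 read 7.65, 7.30, 8.52, 7.42 and 8.07 in cold Col-0 and 9.18 and 8.85 in WS, a difference of 1.22 (SE 0.30, limma adjusted p = 0.0508). Its groups did not overlap, and it was called under 7 of the 17 alternatives. AT4G01870 differed by 1.29 (SE 0.48, limma adjusted p = 0.178), with 9.95, 9.18, 10.75, 9.80 and 10.71 in cold Col-0 and 10.64 and 12.10 in WS, so its groups overlapped. AT2G41380, AT3G04010 and AT1G49450 differed by 1.24, 1.16 and 1.02, with limma adjusted p of 0.140, 0.0809 and 0.0913. WS replicate 2 carried much of the difference in AT4G01870, AT2G41380 and AT3G04010. Without it they differed by 0.56, 0.59 and 0.60, and without WS replicate 1 by 2.02, 1.89 and 1.73. AT1G49450 and AT3G16800 went the other way, with 1.23 and 1.39 without WS replicate 2 and 0.81 and 1.06 without WS replicate 1. AT3G04010 was called under 2 of the 17 alternatives, and AT4G01870, AT2G41380 and AT1G49450 under 0.

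On the low side, AT5G62210 and AT4G12500 lay 1.05 below Col-0 in WS, and neither passed the test (limma adjusted p = 0.230 and 0.0636). AT4G12500 read 8.36, 7.99, 8.47, 8.33 and 7.93 in cold Col-0 and 6.63 and 7.70 in WS, so the groups were separate but the WS arrays were 1.07 apart. AT5G62210 read 10.73, 10.27, 11.04, 9.89 and 10.57 against 9.05 and 9.85. Its 22 °C arrays, 8.15 and 6.50, were further apart than either cold group. Without WS replicate 1 the differences were −0.51 in AT4G12500 and −0.65 in AT5G62210, and without WS replicate 2 they were −1.58 and −1.45. AT4G12500 was called under 4 of the 17 alternatives and AT5G62210 under 0.

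A further 3 members passed the adjusted p but not the minimum difference of 1. AT1G51380 was higher in WS by 0.81 (SE 0.15, limma adjusted p = 0.0168), with 6.37 to 6.82 in cold Col-0 and 7.43 and 7.45 in WS. AT1G77030 was lower by 0.94 on the log2 scale (SE 0.22, limma adjusted p = 0.0442), with 7.27 to 7.59 against 6.56 and 6.41. AT4G38380 was lower by 0.75 (SE 0.16, limma adjusted p = 0.0327), with 6.61 to 7.02 against 6.21 and 5.79. In all 3 the groups were separate.

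**Figure D3:**
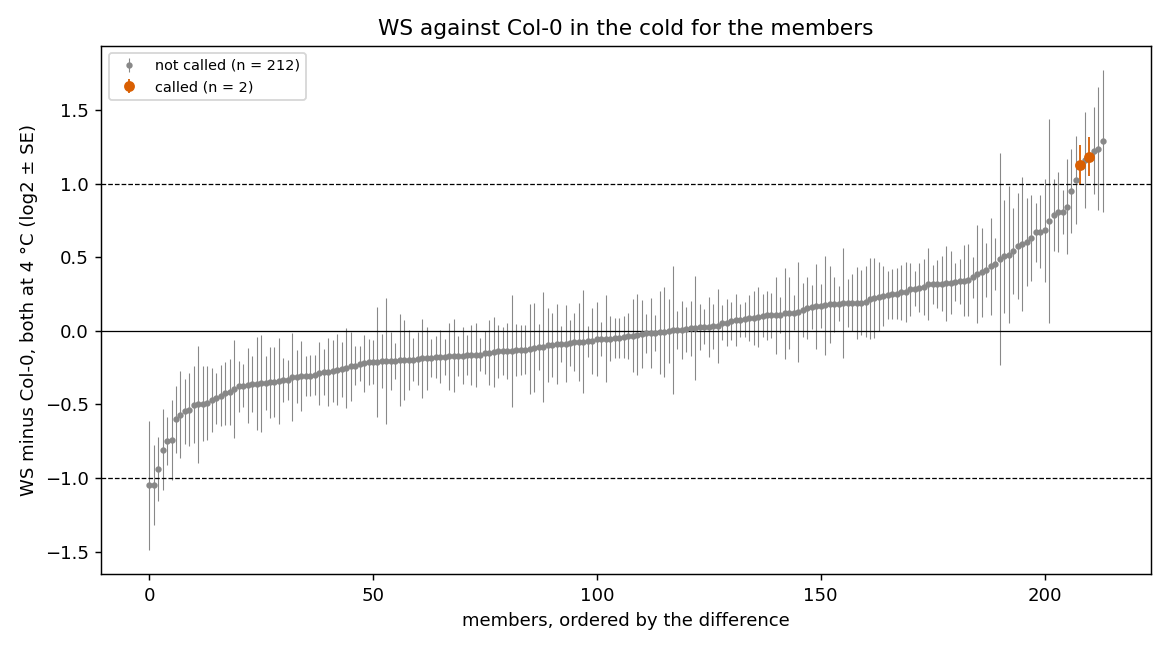
WS minus Col-0, both at 4 °C (log2, vertical axis, bars ± SE from limma), for the 214 members in order of the difference; dashed lines mark −1 and 1. The curve crosses 0 near its middle (116 members below 0, 98 above), and the 2 called loci (orange) have short bars next to longer ones of equal height.

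Between the 2 WS arrays the median SD of the members was 0.13, but 11 had WS arrays at least 1 apart, 8 of them with replicate 2 higher. AT4G22470 was at 5.57 and 8.25, an SD of 1.90, and AT2G43620 at 9.16 and 10.70. In cold Col-0 these loci also varied, AT4G22470 from 5.51 to 7.38 and AT2G43620 from 8.70 to 10.18. The median SD of the members was 0.26 in cold Col-0 (5 arrays) and 0.25 at 22 °C (2 arrays), against 0.18 and 0.15 over all probe sets. SDs from 2 and from 5 arrays are not directly comparable.

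The loci were not equally high on all cold Col-0 arrays. Their median deviation from the cold Col-0 mean was 0.03, 0.02 and 0.23 on replicates 1 to 3 and −0.05 and −0.24 on the set 4 arrays, where that of all probe sets was −0.03, −0.04, 0.09, −0.01 and −0.01. Of the 214, 190 lay above their mean on replicate 3 and 38 on set 4 replicate 2. The difference of set 4 from the 3 other cold arrays had a median of −0.25 over the members and −0.02 over all probe sets, and 179 members (83.6%) lay below 0 against 53.2% of all. Shifting the arrays to a common median left 162 members below 0, against 44.4% of all probe sets, and quantile normalization 148, against 48.2%. Leaving out 1 cold Col-0 array at a time gave 151 to 182 members, against 45.9% to 58.1% of all.

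Both set 4 arrays lay below the 3 other cold arrays in 77 members, 36.0% against 15.3% of all probe sets, and above them in 7, 3.27% against 11.6%. With quantile normalization, 68 lay below (14.8% of all) and 17 above (17.0%). None of the 214 was called in this contrast, and 1 of all probe sets was, 0.0044% (limma, Benjamini-Hochberg, 4 group means). At an unadjusted p under 0.05 stood 57 members (26.6%), every one lower in set 4, against 10.6% of all probe sets. The rule used the mean and the lowest of these cold arrays. The set 4 counts over the members are therefore a description, and nothing is read from their distance to the share of all probe sets. AT1G71000 was lowest, by −2.15 (SE 0.36, limma adjusted p = 0.362), followed by AT2G22080 at −1.09 (SE 0.31, limma adjusted p = 0.376) and AT5G05210 at −1.02 (SE 0.24, limma adjusted p = 0.362). AT2G22080 read 9.62, 10.19 and 10.39 on replicates 1 to 3 and 9.42 and 8.53 on set 4, and AT5G05210 read 8.05, 8.10 and 8.12 against 7.52 and 6.62. In both, set 4 replicate 2 was the lowest cold Col-0 array. What set 4 stands for was not given, and its part in the spread of the loci was not tested.

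**Figure D4:**
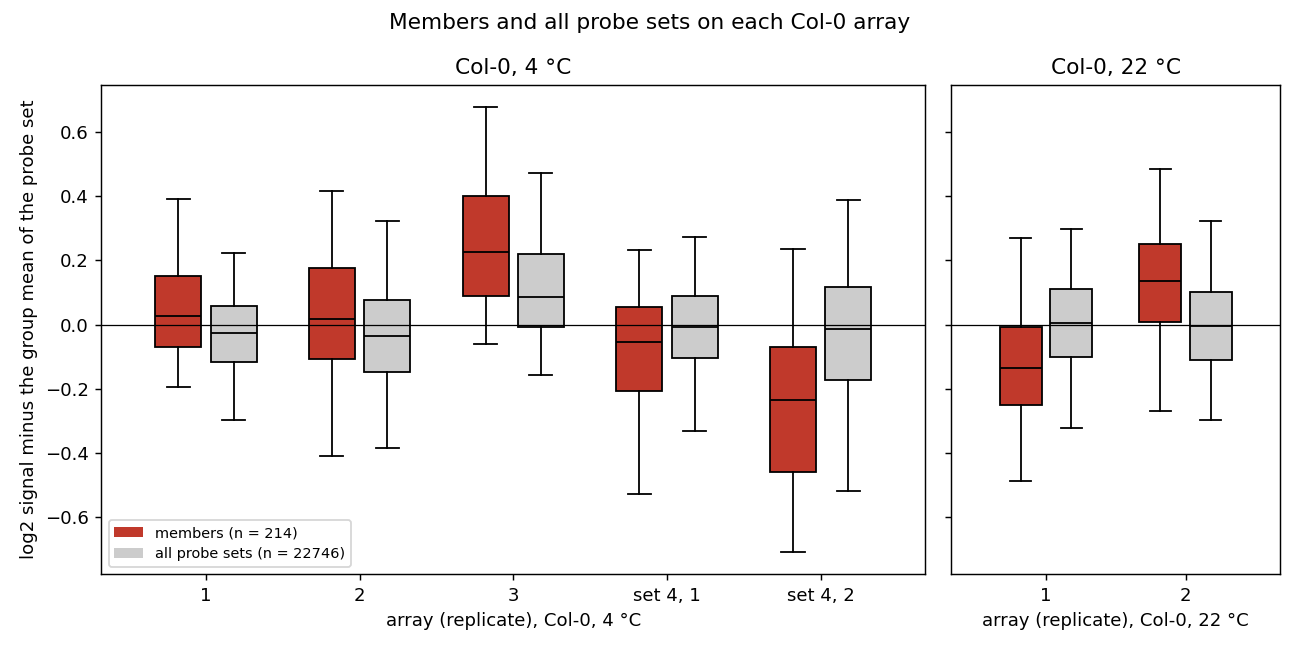
Log2 signal minus the mean of the same group (vertical axis) on each Col-0 array, for the 214 members (red) and all 22746 probe sets (grey); boxes span the quartiles with the median as a line and whiskers reach the 5th and 95th percentiles. The members are highest on cold replicate 3 (median 0.23) and lowest on set 4 replicate 2 (median −0.24), and at 22 °C they lie lower on replicate 1 than on replicate 2.

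The 22 °C arrays also differed in these loci. Replicate 1 minus replicate 2 had a median of −0.27 over the members (0.01 over all probe sets), and 163 members (76.2%) were lower on replicate 1 against 47.2% of all. The arrays were at least 1 apart in 10 members, of which 8 were lower on replicate 1. AT4G30650 had the widest gap, −1.90, followed by AT5G62210 with 1.65, which was higher on replicate 1, and AT1G16850 with −1.26. Of the 9 measured genes of the cold pathway list, 8 were lower on replicate 1 too: COR15A was at 6.42 and 8.32, LTI30 at 7.83 and 10.00. The exception was TIL, at 10.05 and 9.97. All 4 measured shoot genes were higher on replicate 1, where 51.4% of all probe sets were. The rule used both 22 °C arrays, so the members' counts here are a description too. The part of replicate 2 in these values was not tested. Whichever 22 °C array is used, each member's 7 cold arrays lay above it, since the rule required this.

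The number of probe sets that met the rule moved most when a 22 °C array was left out. Without replicate 1 at 22 °C, 181 probe sets met the rule and 46 of the 214 were lost; without replicate 2, 258 met it and 12 were lost. Leaving out a single cold array gave 200 to 218, with the most losses, 15, without replicate 3 of cold Col-0. Under all 9 such runs 148 members were kept, and 66 were lost in at least 1, of which 30 were lost without replicate 1 at 22 °C alone. AT2G23120 was kept throughout. AT4G30650 fell out without replicate 1 at 22 °C, and AT3G09440 without that array and also without replicate 1 or replicate 3 of cold Col-0.

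**Figure D5:**
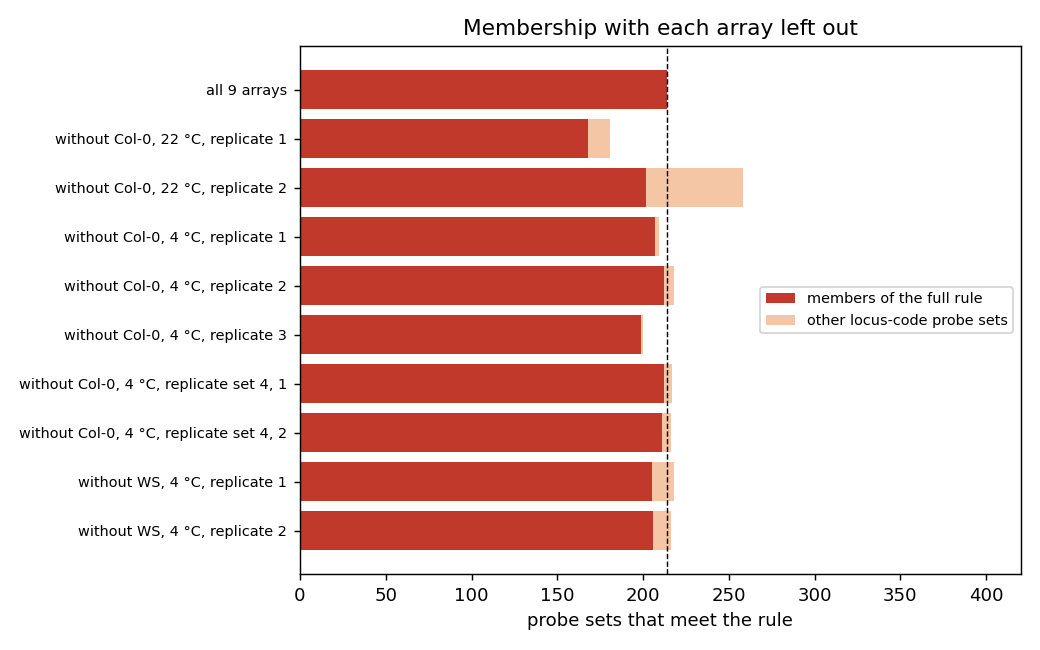
Number of locus-code probe sets meeting the rule (horizontal axis) with all 9 arrays and with each array left out; red are members of the full rule, light orange are probe sets gained, and the dashed line is at 214. The bars reach 181 without 22 °C replicate 1 and 258 without 22 °C replicate 2.

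The same differences were met by 41 of the 1580 probe sets whose gene has a symbol (2.59%) and by 210 of the 8730 with no gene listed (2.41%), beside 1.79% of the locus-code probe sets. In the cold, WS minus Col-0 had a median of 0.11 over the 41 and 0.03 over the 210, against −0.04 for the locus-code members. Called between accessions were 0 of the 41 (0%) and 3 of the 210 (1.43%), against 2.14% of all probe sets. Set 4 lay lower in these groups as well, with medians of −0.23 in both, against −0.02 over all probe sets. The same rule on the cold arrays chose these groups, so this is a description too. The mirrored rule, for locus-code probe sets lower in the cold in both accessions, found 202 probe sets; 6 of these (2.97%) were called between cold WS and cold Col-0, and their set 4 median was 0.04. These shares were not tested against one another.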

How the data were processed

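The values are the log2 signals that the authors deposited, 1 per probe set and array, made by RMA with the R package affy per the submitters' processing notes; versions and genome build are not given in the sources used here. All 9 array columns matched a sample title and none went unused. Of 22810 probe sets, 64 controls were left out, and limma 3.58.1 (lmFit and eBayes, R 4.3.3) was run on the other 22746 with a mean per group, or 4 means for set 4. Benjamini-Hochberg adjustment covered all of them, and a call needed a log2 difference of at least 1 in size and an adjusted p under 0.05. The array annotation gave 13513 probe sets a single gene, 503 several and 8730 none. Tested on simulated data for the contrast of cold WS with cold Col-0 (22746 probe sets), the fit recovered 86 of 100 log2 changes of 1.5 and 99 of 100 of 3, and called 0 unchanged probe sets. The simulated noise was independent, without shifts shared by the probe sets of an array, so these are not error rates of the real contrast. Changes under 1.5 were not simulated, and the largest WS difference among the members was 1.29. The number of arrays limits the precision, and no detection limit was set.

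The members, lists and rules were chosen with earlier results of these data known. Named loci were the 10 highest and 5 lowest Col-0 differences, loci called between accessions or sets, neighbours, loci at the threshold, loci with the widest 22 °C or cold Col-0 spread, those with more than 1 probe set, and the highest and lowest mean cold signals. Others were named after their values were seen: AT2G32020, those with WS or set 4 differences of at least 1, an adjusted p under 0.05, a synonym, widely spread WS arrays, a small gap, an x_at probe set or 1 gene between. Gene descriptions, promoters and proteins were not used here. Deviations of same-numbered arrays from their group means correlated between −0.354 and 0.236 over 12 pairs. Groups of 2 arrays give mirrored deviations, and some pairs share a group mean. These values therefore cannot decide whether the replicate numbers pair the arrays.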

Additional observations from a re-analysis of the deposited data

How the results depend on the processing

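The number of loci depends most on the size asked for: 485 probe sets met the rule at a minimum difference of 1 and 91 at 2. With each array left out it was 181 to 258, and the other alternatives (array scaling, set 4 left out, 1 probe set a gene) gave 212 to 220. Calls of members between cold WS and cold Col-0 numbered 2; they were 5 with arrays shifted to a common median, 4 with dim probe sets left out, 4 with a trended and robust eBayes, 5 by adjusted p alone, and 2 to 4 with each array left out (a lone WS or 22 °C array is then assumed to vary like the other groups). AT3G60980 and AT5G13200 were called in every one of these runs. Most of the added calls were AT3G16800, AT4G12500 and AT3G04010. Over all probe sets this contrast had 486 calls, 285 (without WS replicate 2) to 549 (without set 4 replicate 2) with each array left out, and 1083 by adjusted p alone. With replicate number as a replicate block, 3 members and 393 probe sets were called. Whether the numbers pair the arrays is not known. The set 4 contrast had 0 calls among members under every alternative. Members lower in set 4 numbered 148 to 182, members lower on replicate 1 than on replicate 2 at 22 °C 158 to 163, and members lower in cold WS 99 to 126; these counts under other settings were added after seeing the data. The cause of these shifts was not tested.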

Other observations

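Some of the remaining loci were apart between the arrays of a group in ways the comparisons do not use. AT5G51830 was uneven in both accessions, with 5.84 and 6.95 at 22 °C and 8.77 and 9.80 in cold WS. AT1G48100, which rose 14.5-fold in Col-0 and stood 16.5-fold above Col-0 at 22 °C in WS, was at 11.02 and 9.81 on the WS arrays, and AT5G41670 was at 9.67 and 10.69. AT1G73700 was at 6.35 and 5.27 in cold WS and was called lower in WS when WS replicate 1 was left out, a run in which the lone WS array is assumed to vary like the other groups. At 22 °C AT1G06000 was at 9.39 and 8.26, 1 of the 2 loci higher on replicate 1 by at least 1. These loci were chosen after their values were seen, and no explanation was tested.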
